A study of Mus musculus with 3 samples.

Results

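The 10 genes described here, Cpsf6, Cpsf7, Nudt21, Fip1l1, Cpsf2, Cpsf3, Cstf1, Cstf2, Cstf3 and Pcf11, encode subunits of the machinery that cuts a nascent transcript and adds its poly(A) tail. They were chosen by name, with earlier results of these data known. Their isoforms were all transcript models assigned to them by strand and by the number of splice sites shared with the GENCODE M21 annotation of the mouse genome (GRCm38), which gave 71 of 34238 models, 69 of them spliced. Full-length transcripts were read by PacBio long-read sequencing in 3 libraries of CD4+ T cells from spleens and lymph nodes of wild-type (WT) male C57BL/6N mice. The first library held naive cells taken on the day of isolation. The second held cells cultured for 48 h with anti-CD3 and anti-CD28 antibodies that had not divided, and the third held cells of the same treatment that had gone through 2 divisions, both sorted by dilution of the dye CellTrace Violet. By the study's own staining, undivided cells were a mixture in which some had not induced activation markers. The number of mice behind a library is not given in the sources used here.

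Each stage had 1 library, so no test was possible, and every difference given below is one between libraries. In the submitters' naming of the deposited models, the naive library carried one cell label and the activated libraries another. From that naming alone, the label was read as the sequencing cell. Stage and whatever the label marks cannot be told apart. The deposited models give exon positions without read numbers: an isoform is listed or not listed, its abundance is unknown, and fewer cells that make an RNA cannot be told apart from less of that RNA in each cell. The naive, undivided and 2-division libraries listed 10527, 12602 and 11109 models, with median lengths of 2206, 2040 and 1953 nt. Of 5 CD4 T cell markers, Cd3e, Cd3d, Cd4 and Cd28 were listed in each library and Cd3g in the naive one alone, and the activation markers Il2ra, Tfrc, Mki67 and Top2a in both activated libraries and not in the naive one. The B cell markers Cd79b and Ms4a1 were listed in naive cells alone, Cd74 in all 3 libraries and Cd79a in none. Their part in the results was not tested.

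Cleavage and polyadenylation starts when the specificity factor CPSF binds the poly(A) signal, the hexamer AAUAAA or a close variant, and the stimulation factor CstF binds U- or GU-rich sequence after the cut site. The CPSF endonuclease then cuts between them and poly(A) polymerase adds the tail. Where a gene holds several signals, cleavage factor I (CFIm), which reads UGUA upstream of a site, CstF and PCF11 are known to shift the choice among them, and with it the length of the 3′ untranslated region (3′ UTR) or, for a site within an intron, the protein itself. Several of these genes are known to have alternative 3′ ends of their own.

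The 10 genes had 22 isoforms in the naive library, 23 in the undivided library and 26 in the 2-division library, with median lengths of 2726, 2088 and 2141 nt. An isoform was listed for 8, 9 and 9 of the 10 genes, against 21%, 24.8% and 23% of all protein-coding genes in the same order. The genes without one were Cstf2 and Pcf11 in naive cells, Cpsf7 in undivided cells and Pcf11 after 2 divisions. The listed members had a median of 2.5, 2 and 2 isoforms, against 1, 2 and 1 over all genes listed. The bar chart of isoform numbers shows that Cpsf6 and Fip1l1 held the most, with 17 and 15 over the libraries, and Pcf11 the fewest, with 1.

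**Figure D1:**
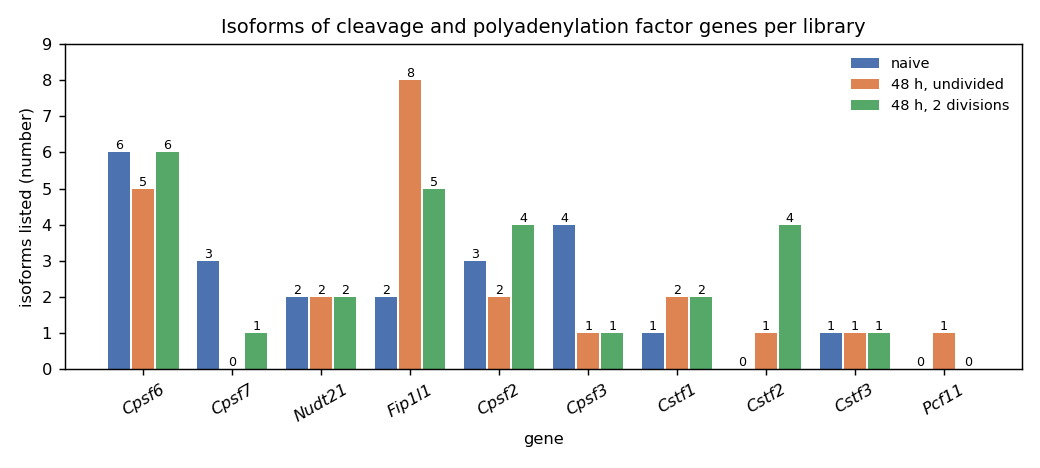
Number of isoforms listed (vertical axis) for each of the 10 genes (horizontal axis) in naive cells, in undivided cells at 48 h and in cells after 2 divisions at 48 h, with 1 library each. Fip1l1 had 2, 8 and 5 isoforms, Cstf2 had 0, 1 and 4, and Cstf3 had 1 in each library.

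A tandem 3′ end is one of several ends within one last exon. Here, isoforms of a gene that share the first base of their last exon formed a family, ends within 24 nt of the next were merged, and a family with at least 2 merged ends in a library was called tandem. In the naive library, 4 of 8 members had tandem ends (Cpsf6, Cpsf7, Nudt21 and Cpsf2). In the undivided library 4 of 9 had them (Cpsf6, Nudt21, Fip1l1 and Cpsf2), and in the 2-division library 5 of 9 (the same 4 and Cstf2). The share over all genes with a spliced isoform was 18.3%, 24.5% and 22.4%. As a tandem call needs at least 2 spliced isoforms, the members were also set against genes that had them. Of such members, 4 of 6, 4 of 5 and 5 of 6 were tandem, against 42.1%, 49.1% and 47.2% of such genes. The members' shares lay above the background, but they are few, and Cpsf6, Nudt21 and Cpsf2 recur in every count. Without ends followed by an A-rich stretch of the genome, at least 12 A in 20 nt, Cpsf2 was no longer tandem in any library, and with ends merged within 100 nt Nudt21 was not, so that 3, 3 and 4 members were left in either case. The shares over all genes were not computed at these settings, so the reduced counts have no matching background.

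The 71 isoforms ended at 28 distinct ends after merging over the libraries, of which 9 were found in all 3 libraries, 9 in 2 and 10 in 1. The same split was not computed over all genes, so these counts do not tell whether the members are unusual. An end listed in 1 library may have gone unread in another. A canonical poly(A) signal, AATAAA or ATTAAA on the transcribed strand in the 50 nt before the end, preceded 57 of the 71 ends, against 65.5% of all isoform ends in the series. By stage these were 17 of 22, 19 of 23 and 21 of 26 ends, against 61.6%, 67.3% and 67.3%. An end found in several isoforms or libraries counts several times here, in the members and in the background. Of the 28 distinct ends 20 had a canonical signal. The share among distinct ends of all genes was not computed, so the 20 of 28 have no matching background. TGTA, the DNA spelling of the CFIm motif UGUA, was present on the transcribed strand in the 100 nt before 43 of the 71 ends, against 51%. By stage these were 12 of 22, 13 of 23 and 18 of 26 ends, against 49%, 52.1% and 51.6%. An end was called A-rich where the genome held at least 12 A in the next 20 nt, a sequence that an oligo(dT) primer can bind within a transcript. This held for 12 of the 71 ends, against 25.4% of all ends, and by stage for 5 of 22, 3 of 23 and 4 of 26, against 32%, 22% and 23%. These matches describe letters in a window and do not show that a factor binds there.

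**Figure D2:**
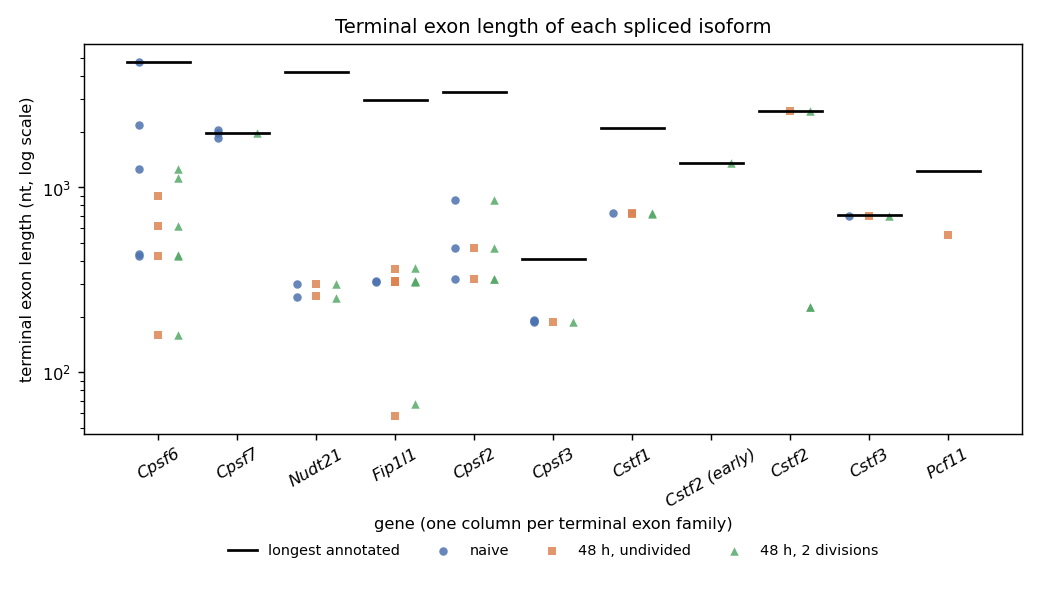
Terminal exon length of each spliced isoform (nt, vertical axis, log scale) in each family of isoforms that share the start of their last exon (horizontal axis), with one symbol per isoform and library. Black lines mark the longest last exon annotated from the same start. Isoforms reached or passed it in Cpsf6, Cpsf7 and the last exon of Cstf2. They stayed far below it in Nudt21, Fip1l1, Cpsf2, Cpsf3, Cstf1 and Pcf11.

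Of the CFIm genes, Cpsf6 encodes the larger subunit CFIm68, which pairs with the UGUA-binding subunit CFIm25. Its gene lies on the minus strand of chromosome 10 (GRCm38, 117344673 to 117380015) and its last exon is untranslated, since the stop codon sits 3 nt before the last splice junction. This arrangement was shared by Cpsf7 and Cstf2, so by 3 of the 10 members, against 4.16% of coding genes in the annotation. The entire last exon therefore belongs to the 3′ UTR, and its tandem ends leave the protein as it is.

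Cpsf6 had 8 tandem ends in this exon over the libraries, the most of the 10 genes. In naive cells the terminal exon measured 4797, 2180, 1254, 434 and 428 nt in the 5 spliced isoforms that reach it. In undivided cells it measured 899, 616, 428 and 159 nt, and after 2 divisions 1254, 1122, 616, 429, 427 and 158 nt. The site at 427 to 434 nt was common to all 3 libraries. The ends at 2180 and 4797 nt came from naive cells alone among spliced isoforms, while those at about 159 nt and at 616 nt came from both activated libraries and not from naive cells.

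The mean terminal exon was 525.5 nt in undivided cells against 1819 nt in naive cells, a difference of -1293 nt, and 668 nt after 2 divisions against 1819 nt in naive cells, a difference of -1151 nt. Between the activated libraries it was 142 nt longer after 2 divisions than in undivided cells. These means weigh each listed isoform equally and carry no error, since isoforms are not replicates. The distal site was also listed in the undivided library, by a model of 1079 nt without introns that ended at the same base as the 4797 nt exon. The naive library had longer models than the others over all genes as well, by the medians given above, and the part of this in the Cpsf6 difference was not tested.

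**Figure D3:**
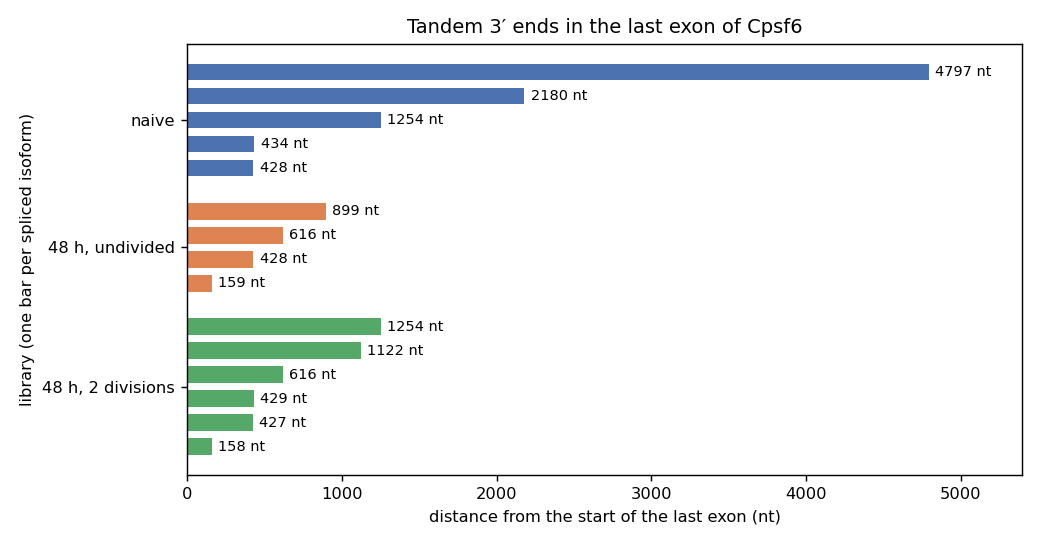
Length of the last exon of Cpsf6 (nt from its start, horizontal axis) in each spliced isoform that reaches it (one bar each, grouped by library, naive at the top). Naive cells had the exons of 4797 and 2180 nt, and the activated libraries the exons of 158 to 159 and 616 nt.

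The ends of Cpsf6 that set the libraries apart, and the one that they shared, are printed with 30 bases before the cut, 5′ to 3′ on the minus strand of GRCm38. Capitals mark the poly(A) signal.
Cpsf6 end at 159 nt, chr10:117349309-117349338: atctgAATAAAgcaaatctgcataaatggt
Cpsf6 end at 428 nt, chr10:117349040-117349069: gtagtgttgtAATAAActgtttatggggct
Cpsf6 end at 616 nt, chr10:117348852-117348881: cagtgaATTAAAcatgactaattaagtgtc
Cpsf6 end at 2180 nt, chr10:117347288-117347317: aggaaaaAATAAAatagctttggtttgtct
Cpsf6 end at 4797 nt, chr10:117344671-117344700: ttgtattgaaAATAAAaacaaagttttggt
The canonical AATAAA stood at 6 of the 8 tandem sites, the variant ATTAAA at the 616 nt end and AATGAA at the 1122 nt end. None of the 8 was A-rich, with 3 to 8 A in the next 20 nt. TGTA occurred 3 times before the shared 428 nt end, not at all before the 616 nt end and 1 or 2 times before the others.

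Cpsf6 also varied in its coding exons. A cassette exon of 111 nt (chr10:117361774-117361884) was included in 1 of 5 naive isoforms, 0 of 4 undivided isoforms and 1 of 6 isoforms after 2 divisions, and both inclusions ended at the shared 428 nt site. Inclusion gave reading frames of 588 or 589 codons, against 551 or 552 without the exon. A second choice was between acceptors 3 nt apart at the exon that holds the stop codon. The 3 bases were kept in 4 of 5 naive isoforms, 0 of 4 undivided isoforms and 1 of 6 isoforms after 2 divisions, which adds 1 codon. Both forms were annotated, in different combinations. The acceptor is printed with the 3 optional bases in capitals.
Cpsf6 acceptor, chr10:117356112-117356140, minus strand: taatttcttttagAAGacgtgaacgatca

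A further naive Cpsf6 model had only 2 exons and was an early end, defined as an end upstream of the exon that holds the most distal annotated stop codon. It ran past the end of its second exon into the next intron, stopped 1319 nt after that exon began, and held a frame of 101 codons with a stop codon that is not annotated. It had no poly(A) signal of the 12 searched, and 18 of the next 20 bases were A. Those bases follow, with A in capitals.
Cpsf6 after the early end, chr10:117366650-117366669, minus strand: AAAAAAcAAAcAAAAAAAAA

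Cpsf7 encodes CFIm59, the other large CFIm subunit, on the plus strand of chromosome 19 (10525266 to 10547653). It had 3 isoforms in naive cells, with terminal exons of 2038, 1962 and 1846 nt, none in undivided cells and 1 after 2 divisions, of 1962 nt. The 1962 nt end is the annotated one, so the end shared by naive and divided cells lay between the other naive ends. The 2038 nt end had AATAAA 16 nt upstream and lay 76 nt past the last end that GENCODE M21 lists, at an end that RefSeq lists. The 1846 nt end had no signal and was A-rich, with 14 A in the next 20 nt.

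An alternative donor in Cpsf7 added 27 nt to an internal exon (chr19:10533439-10533465, plus strand). It was used in 2 of 3 isoforms in naive cells and in the 1 isoform after 2 divisions, and gave 471 codons against 462 without it. The optional segment is printed in capitals.
Cpsf7 segment: GTGAGTGCGTCCGAGTCCCAAGAGGGG

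Nudt21 encodes CFIm25, the subunit that binds UGUA, on the minus strand of chromosome 8 (94015496 to 94037031). Its loss is known to favour proximal sites in many genes. It had 2 isoforms in each library, with terminal exons of 299 and 254 nt in naive cells, 299 and 259 nt in undivided cells, and 299 and 253 nt after 2 divisions. The ends thus recurred in all 3 libraries to within 6 nt, and the protein of 227 codons was the same in all 6 isoforms. The 3′ UTRs were 277 nt at the distal of these ends and 231 to 237 nt at the proximal one. The longest annotated terminal exon, of 4209 nt, was not listed in any library. Other annotated transcripts of Nudt21 end 1 and 2 nt from the nearest ends listed here. Both ends used the ATTAAA variant, in capitals, on the minus strand.
Nudt21 end at 259 nt, chr8:94019446-94019475: gtacATTAAAgaaagtgaatttcttatttg
Nudt21 end at 299 nt, chr8:94019406-94019435: taagtttctcATTAAActctgaaaagtctt

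Fip1l1 encodes FIP1, the CPSF subunit that contacts U-rich sequence and poly(A) polymerase, on the plus strand of chromosome 5 (74535449 to 74598800). Its isoforms differed more in cassette exons, which an isoform either includes or skips, than in 3′ ends. Over the libraries 4 cassette exons were found in 2 members, 3 in Fip1l1 and 1 in Cpsf6, out of 9 members with at least 2 spliced isoforms, against 18.3% of all such genes. The number of members with a cassette exon was thus near the background.

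The cassette exon of 27 nt (chr5:74585046-74585072, plus strand) was included in 0 of 2 naive isoforms, 6 of 8 undivided isoforms and 4 of 5 isoforms after 2 divisions. The exon of 108 nt (chr5:74564519-74564626) was included in 1 of 2, 4 of 8 and 3 of 5. The exon of 69 nt (chr5:74547107-74547175) was included in 0 of 2, 2 of 8 and 0 of 5. The naive isoforms lacked the 27 nt exon and most isoforms of activated cells had it, but naive cells contributed only 2 isoforms, and the exon combinations of both were also listed in undivided cells. The exon of 27 nt is printed whole, in capitals.
Fip1l1 exon of 27 nt: GTATTCCAATAACTGTACCACCTCCAG

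Each of the 3 exons has a length that is a multiple of 3 and keeps the reading frame. The shortest frame, without any of them, had 536 codons and was listed in every library. Frames had 545 codons with the 27 nt exon, 572 with the 108 nt exon, 581 with both, 568 with the 69 and 27 nt exons and 604 with all 3. The 568 and 604 codon forms were listed in undivided cells alone. The 572 codon form was listed in naive and undivided cells, and the 545 and 581 codon forms in both activated libraries.

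**Figure D4:**
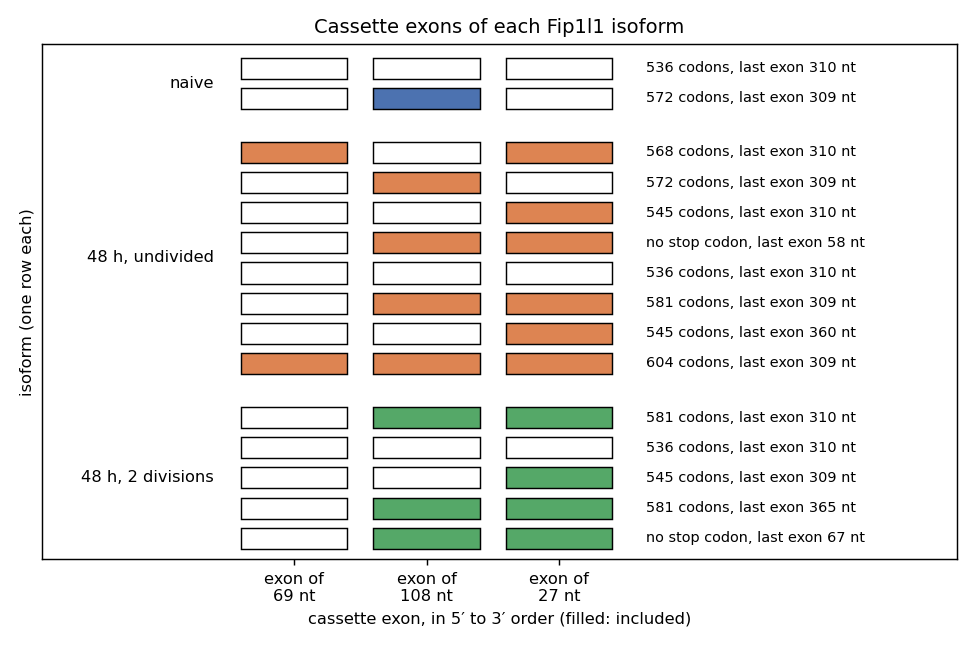
Cassette exons of Fip1l1 in each isoform (one row each, grouped by library, naive at the top), with a filled box where the exon of the length under the column is included. Text on the right gives the codons of the reading frame and the length of the last exon. The 27 nt exon is filled in 0 of 2 naive, 6 of 8 undivided and 4 of 5 rows after 2 divisions.

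At the 3′ end, the last exon of Fip1l1 measured 309 or 310 nt in both naive isoforms, in 6 of 8 isoforms of undivided cells and in 3 of 5 after 2 divisions. The activated libraries each added an end at 360 or 365 nt and an end at 58 or 67 nt. The short one lay before the annotated stop codon, so that the frame had no stop codon, had no poly(A) signal and was A-rich, with 13 or 14 A in the next 20 nt. The longest annotated last exon from the same start, of 2962 nt, was not listed. Another annotated transcript of Fip1l1 ends 2 nt from the nearest listed end, that of the 309 or 310 nt exon. The mean terminal exon of 284 nt in undivided cells against 309.5 nt in naive cells, and of 272 nt after 2 divisions against 309.5 nt in naive cells, was shorter only through the A-rich ends: without them the means were 317 nt and 323.5 nt, above the naive 309.5 nt.

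Cpsf2 encodes CPSF100, the catalytically inactive partner of the endonuclease, on the plus strand of chromosome 12 (101975988 to 102006424). Its terminal exon ended at 319, 468 and 850 nt. In naive cells there was 1 isoform at each end, in undivided cells 1 at 319 nt and 1 at 468 nt, and after 2 divisions 2 at 319 nt, 1 at 468 nt and 1 at 850 nt. The 319 and 468 nt ends were A-rich, with 15 and 14 A in the next 20 nt and no signal, while the 850 nt end had AATAAA 8 nt upstream. The sequence after the A-rich ends is printed with A in capitals, and the 850 nt end with its signal in capitals, all on the plus strand.
Cpsf2 after the 319 nt end, chr12:102003448-102003467: AAtAAAgAAAgAAAgAAAAt
Cpsf2 after the 468 nt end, chr12:102003597-102003616: AAgAAgAAAAAggAgAAAAc
Cpsf2 end at 850 nt, chr12:102003949-102003978: ataacctcatcatttgAATAAAtgttatct

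The mean terminal exon of Cpsf2 was 393.5 nt in undivided cells against 546 nt in naive cells, a difference of -152 nt, and 489 nt after 2 divisions against 546 nt in naive cells, a difference of -56.7 nt. Leaving out A-rich ends removed Cpsf2 from undivided cells and left the 850 nt end in both other libraries. The isoform at 850 nt after 2 divisions was a model of 7 exons that started within the gene, at 101996842, with an intron chain in neither GENCODE M21 nor RefSeq. The annotated exon of 3296 nt was not listed. The full-length isoforms encoded 782 codons in every library, and 1 isoform after 2 divisions began 245 nt upstream of the GENCODE start, in another first exon whose intron chain RefSeq lists.

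Cpsf3 encodes CPSF73, the endonuclease itself, on the plus strand of chromosome 12 (21285391 to 21315056). Spliced isoforms of all libraries shared one end, at 188 to 192 nt of the last exon, with AATAAA upstream. The form of 18 exons and 684 codons was listed in each library. Naive cells held 3 further models, and the activated libraries none.

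The first of these naive Cpsf3 models was a single exon of 2696 nt from the annotated start, an early end in the first part of the gene with 17 codons, no signal and 15 A in the next 20 nt. It held whole the annotated introns chr12:21286545-21286804 and chr12:21286545-21286872, which share a start. The second, of 17 exons and 5035 nt, retained an intron of 2797 nt (chr12:21302506-21305302) and had a frame of 426 codons, with its stop codon 3469 nt before the last junction. The third used a donor 14 nt further downstream (chr12:21305456-21305469), which shifts the frame and gave 512 codons and a stop codon 428 nt before the last junction. A stop codon far ahead of the last junction is the usual mark of an mRNA for nonsense-mediated decay, which was not measured here. The alternative donor is printed with the 14 added bases in capitals.
Cpsf3 donor, chr12:21305448-21305477, plus strand: tcgccaagGTACAAGGCAGCAGgtgctgac

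Retained introns, annotated introns lying whole within an exon, were thus seen in 1 of 8 members in the naive library (Cpsf3) and in 0 of 9 in either activated library, against 27.1%, 21.8% and 20.4% of all genes with introns. Early ends were seen in 2 of 8 members in the naive library (Cpsf6 and Cpsf3), in 0 of 9 in the undivided library and in 1 of 9 in the 2-division library (Cstf2), against 22.3%, 16.4% and 16.5% of coding genes. Both counts stood near or below their background. Both early ends of naive cells were A-rich, and that after 2 divisions was not.

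Of the CstF genes, Cstf2 encodes CstF64, the subunit that binds GU-rich sequence after the cut, on the plus strand of chromosome X (134059187 to 134086819). It was not listed in naive cells, had 1 isoform in undivided cells with a terminal exon of 2590 nt, and had 4 after 2 divisions. These were 1 isoform of 2590 nt, 2 isoforms of 225 nt in the same last exon and 1 that ended early. The mean terminal exon in that last exon was 1013 nt after 2 divisions against 2590 nt in undivided cells, a difference of -1577 nt that rests on 3 isoforms against 1, and the longest was the same.

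The early Cstf2 isoform had 11 exons and ended in an exon of 1350 nt, with 510 codons and AATAAA 17 nt before its end. It lay 1 nt from the end of an annotated transcript of Cstf2. Of 38 annotated early transcript ends in 9 of the 10 genes, it was the only one with a library end within 24 nt. The 38 include transcripts annotated as retained-intron, processed or nonsense-mediated decay types. The share over all genes was not computed. None of the annotated early ends of Cstf3 and Pcf11 was listed. Those of Cstf3 belong to transcripts annotated as retained-intron or processed types, and those of Pcf11 to annotated transcripts of 1 or 2 exons. Whether they are the intronic poly(A) sites for which both genes are known was not tested. Pcf11 had a model in undivided cells alone. The ends of Cstf2 are printed with the signal in capitals, on the plus strand.
Cstf2 end at 225 nt, chrX:134084427-134084456: AATAAActttgaacacaagtttaacatact
Cstf2 end at 2590 nt, chrX:134086792-134086821: gtcgtggattcAATAAAtattttaaaagtc
Cstf2 early end at 1350 nt, chrX:134075833-134075862: tatatagAATAAAaatgtattttctgttgt

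The last exon of Cstf2 is untranslated, with the stop codon 3 nt before the last junction, so the 225 and 2590 nt ends gave 3′ UTRs of 228 and 2593 nt on the same protein of 580 codons. An acceptor 78 nt further downstream (the segment chrX:134073136-134073213 left out) was used in 1 of 4 isoforms after 2 divisions and gave 554 codons. Its isoform ended at 225 nt. The undivided isoform kept the segment.

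Cstf1 encodes CstF50, the WD-repeat subunit, on the plus strand of chromosome 2 (172370681 to 172382448). It had 1, 2 and 2 isoforms in naive cells, undivided cells and after 2 divisions, all of 431 codons, with terminal exons of 720 or 726 nt against 2089 nt in GENCODE M21. RefSeq lists an end 1 nt from the 726 nt end. What varied was the first exon. Isoforms that began between 172370945 and 172370977 were listed in all 3 libraries, and isoforms that began upstream, at 172370703 in undivided cells and 172370687 after 2 divisions, in the activated libraries alone.

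Cstf3 encodes CstF77, the scaffold that joins the other CstF subunits, on the plus strand of chromosome 2 (104590523 to 104665429). It had 1 isoform of 21 exons in each library, with the same end (104665418), the same terminal exon of 702 nt and the same 717 codons. No tandem end, early end or alternative exon was listed for it, and its start moved by at most 9 nt between libraries.

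Pcf11 encodes the cleavage factor II subunit that binds the tail of RNA polymerase II, on the minus strand of chromosome 7 (92643543 to 92669934). It was listed in undivided cells alone, by 1 model of 9 exons that started within the gene. Its terminal exon measured 552 nt, no signal of the 12 searched preceded its end, 9 of the next 20 bases were A, and TGTA occurred 5 times in the 100 nt before it, the most of any end of the 10 genes. The end lay 34 nt from an annotated one.

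Across the 10 genes, the mean terminal exon was shorter by over 100 nt in undivided than in naive cells in 2 of 7 families (Cpsf6 and Cpsf2), against 13% of families of all genes. After 2 divisions relative to naive cells this held for 1 of 8 families (Cpsf6), against 13.6%, and after 2 divisions relative to undivided cells for 1 of 8 (Cstf2), against 8.39%. Families that were longer by over 100 nt numbered 0 of 7, 0 of 8 and 1 of 8 (Cpsf6) in the same comparisons, against 5.73%, 4.8% and 6.94%. The median difference over the members was -3, -2.33 and 0 nt, and over all genes 0 nt in each comparison. In most members the terminal exon length thus differed little between libraries, and counts of 0 to 2 families do not set the members apart from the background. The 3 comparisons share libraries and are not independent.

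The intron chain as a whole was absent from GENCODE M21 in 9 of 21 spliced isoforms of the naive library, 5 of 22 of the undivided library and 4 of 26 of the 2-division library, against 39.2%, 38% and 36.4% of all spliced isoforms. The naive share was near its background and both activated shares were below it. Almost every single intron was nevertheless annotated (129 of 130 distinct introns of the members), so the unlisted chains were mostly known introns in other combinations. With RefSeq added, 4 isoforms remained unlisted: the Cpsf6 model of 2 exons and the Cpsf3 model with the retained intron in naive cells, the Pcf11 model in undivided cells and the Cpsf2 model of 7 exons after 2 divisions. The share over all genes with RefSeq added was not computed, so these 4 have no matching background.

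Among 14 other genes of the pathway, 11 had an isoform in the naive library, 11 in the undivided library and 11 in the 2-division library. These had 28, 43 and 37 isoforms in the same order. The 11 were not the same genes: Ppp1cb was not listed in naive cells, Ssu72 in undivided cells and Ppp1ca after 2 divisions. Tandem ends were found in 3, 4 and 2 of the listed genes and early ends in 3, 4 and 2. Papola, the poly(A) polymerase, had 5, 5 and 8 isoforms with tandem and early ends in every library, and Wdr33, whose protein binds the AAUAAA signal together with that of Cpsf4, had 3, 4 and 3 isoforms, with early ends in every library and no tandem ends. Pabpc1, the cytoplasmic poly(A)-binding protein, had 9, 21 and 17 isoforms. The CPSF scaffold gene Cpsf1 had 2 isoforms in each library and Cpsf4, which encodes CPSF30, had 1, with 1 distinct end each. The scaffold gene Sympk and the nuclear poly(A)-binding protein gene Pabpn1 had none in any library.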

How the data were processed

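Exon positions of transcript models were deposited by the authors for 3 long-read libraries, 1 per stage. By the study's methods, ccs made the consensus reads and lima removed primers. Only reads that carried a poly(A) tail were kept, and isoseq3, pbmm2 and SQANTI3 served for clustering and collapsing, mapping and annotation. Subread, minimap2, mm10 and GRCm38 are named in the submitters' processing notes. Models carry no read numbers, so depth is unknown and no interval was computed.

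Models were assigned to GENCODE M21 genes by strand and shared splice sites, and models without introns by exonic overlap. The study used a later GENCODE release. No model passed a chromosome end, and 65586 of 68209 distinct introns (96.2%) were annotated. Ends were merged within 24 nt, terminal exons were compared at 100 nt, and reading frames were read on GRCm38 from the annotated start codon, without counting the stop codon. Poly(A) signals were AATAAA and ATTAAA, and where neither was found the variants AGTAAA or TATAAA or CATAAA or GATAAA or AATATA or AATACA or AATAGA or ACTAAA or AAGAAA or AATGAA, on the transcribed strand, and the one nearest the end was taken. Sequences are RefSeq's GRCm38.p6. The 10 genes, the pathway list, the marker lists and the rules were chosen with earlier results of these data known, and all 10 genes are named. Alternatives covered models without introns, A-rich ends, merging distance, length threshold, longest in place of mean terminal exon and definitions of early ends, cassette exons and retained introns. The comparison with RefSeq transcripts was added after seeing the data. The code was tested on simulated data. Calculations used Python 3.11.15, pysam 0.24.0 and matplotlib 3.10.9.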

Additional observations from a re-analysis of the deposited data

How the results depend on the processing

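Of 76 alternative values, 60 were classed as the same and 16 as moved. The first class also holds values that changed. Without A-rich ends, for example, naive cells had 17 isoforms of members in place of 22, and 13 distinct ends in place of 18. Members with early ends in naive cells numbered 1 in place of 2 with spliced isoforms only and 0 without A-rich ends, and after 2 divisions 0 in place of 1 when the end had also to lie in no annotated exon. Retained introns of members in naive cells numbered 3, and 1 with spliced isoforms only or when the intron had also to be spliced in a library. The 3 were all in Cpsf3 and included the overlapping annotated introns that share a start within its model without introns. With RefSeq transcripts added, unlisted chains numbered 2, 1 and 1 in naive cells, undivided cells and after 2 divisions, in place of 9, 5 and 4. Cassette exons numbered 14 in place of 4 with annotated transcripts also used. Shorter families between undivided and naive cells numbered 1 in place of 2 at 200 nt or without A-rich ends, leaving Cpsf6. After 2 divisions relative to naive cells they numbered 2 in place of 1 at 50 nt, and relative to undivided cells 0 in place of 1 with the longest terminal exon. Longer families after 2 divisions relative to undivided cells numbered 2 in place of 1 at 50 nt or with the longest terminal exon, and 0 at 200 nt. The cause was not tested beyond what each setting removes or adds. No paired analysis was possible because each stage had 1 library, and for the same reason no library could be left out. An isoform not listed may have gone unread at this depth, and lengths depend on how long the sequenced molecules were.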
